A study of Mus musculus with 12 samples.

Results

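The genes described here are the hnRNP (heterogeneous nuclear ribonucleoprotein) and SR (serine- and arginine-rich) splicing factor genes, taken as every gene row whose symbol begins with Hnrnp or Srsf. The rule found 31 members among 20981 genes, namely 20 hnRNP genes and 11 SR genes, and no measured value entered it. RNA was sequenced from testes of 3-month-old C57BL/6 Mael-/- mice, so every group carries the same mutation and no library of another genotype is used here. TOTAL was the supernatant of a clarified detergent lysate with 10 mM EDTA, which dissociates ribosomes. INPUT was a pool of fractions 5 to 8 of that extract after sedimentation through a 10 to 50% sucrose gradient. The INPUT material was incubated with an antibody to LINE-1 (L1) ORF1p to give IP, or with beads without antibody to give BO. Each group had 3 libraries, 12 in all. The comparisons ask which of these mRNAs were more abundant with ORF1p than with the beads, in the gradient pool or in the whole extract.

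ORF1p is the RNA-binding protein that L1 retrotransposons encode, and MAEL is a factor of the piRNA pathway that keeps L1 silent in male germ cells. The proteins encoded by the 31 genes bind pre-mRNA as it is made. SR proteins mostly bind exonic enhancers and promote the use of splice sites, hnRNP proteins often oppose them or package the transcript, and members of both families move between the nucleus and the cytoplasm. Many of these genes regulate their own mRNA by including an exon with a premature stop codon, which sends the transcript to nonsense-mediated decay. The values here concern the mRNAs of these genes, not their proteins.

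The gene values are the authors' means over the 3 libraries of a group, in reads normalized by DESeq2 size factors, and they come from 3 tables that each pair IP with 1 other group. No value per library is given for genes and the authors' own comparisons were not used, so no spread, interval or test was computed, and every difference below is a difference between 2 means with no replicate check. Summed over genes, the group means came to between 1.47e+07 and 2.35e+07 normalized reads. The means of the same IP libraries were 1.31-fold higher in the INPUT and TOTAL tables than in the BO table, so levels are not compared across tables except through IP. IP levels are quoted on the scale of the TOTAL table unless the BO table is named. The targeted gene Mael was at 0.502 in BO, 0.65 in TOTAL and 0 in INPUT and IP. Spermatocyte markers were present at a summed mean of 27921 in TOTAL, whereas 5 of 6 spermatid markers (Prm1, Prm2, Tnp1, Tnp2 and Acrv1) were at 39.3 or below in TOTAL and the other, Spaca1, was at 231. In 1 BO library, replicate 3, a repeat annotated as large subunit ribosomal RNA took 52.1% of the repeat signal, against 1.93 to 15.9% in the other 11 libraries. Its part in the BO means of genes was not tested, and no BO mean can be given without it. By the study's methods the BO libraries were made from whatever RNA the volume matching the IP contained, rather than from a set amount.

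The row names of the tables are those of STAR's gene counts, which take in only reads that map to a single place, and the counting is not described further. Several members have processed copies elsewhere in the genome. A 75-nt read from the following stretches of the Hnrnpa1 and Hnrnpa3 mRNAs would map to more than 1 place. They are shown because these are the members with the lowest IP means relative to TOTAL. The sequences are from GENCODE M21 transcripts on mm10, written 5′ to 3′, and the capital letter marks where a copy differs. The Hnrnpa1 stretch lies in the coding sequence at transcript positions 1078 to 1152 and is found unaltered in 4 other genes. Gm8652, a gene at chr6:6351304-6352267, carries it with the substitution G24A, counted from 1 at the 5′ end of the stretch.
Hnrnpa1: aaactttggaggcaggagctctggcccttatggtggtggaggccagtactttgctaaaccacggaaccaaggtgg
Gm8652: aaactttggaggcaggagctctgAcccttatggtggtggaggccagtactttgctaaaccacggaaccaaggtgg
The Hnrnpa3 stretch lies at transcript positions 107 to 181, also in the coding sequence, and is found unaltered in 18 other genes. Gm12194, at chr11:50126907-50127918, carries it with the substitution T43C.
Hnrnpa3: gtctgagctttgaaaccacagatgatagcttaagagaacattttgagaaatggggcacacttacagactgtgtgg
Gm12194: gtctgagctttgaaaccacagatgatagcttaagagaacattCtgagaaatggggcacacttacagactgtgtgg

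Of all 75-nt windows of its longest coding transcript, Hnrnpa1 shared 44.4% exactly with transcripts of other loci, 14 genes of which 13 are pseudogenes. Hnrnpa3 shared 27.9% with 38 genes, of which 36 are pseudogenes. Hnrnpf shared 47.0%, Hnrnpk 29.04%, Srsf3 25.2% and Srsf5 22.6%. At least 1% of windows was shared in 12 of 31 members, or 38.7%, compared with 12.9% of 17698 coding genes. For 18 members no window was shared. The search compared a single annotated transcript of each gene and not the whole genome, so copies outside these transcripts were not looked for. If only uniquely mapped reads were counted, the count of a member with shared windows leaves out reads that fall in them, so its level is understated. Ratios between groups then rest on the remaining windows. Whether the part left out was the same in every group was not tested.

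**Figure D1:**
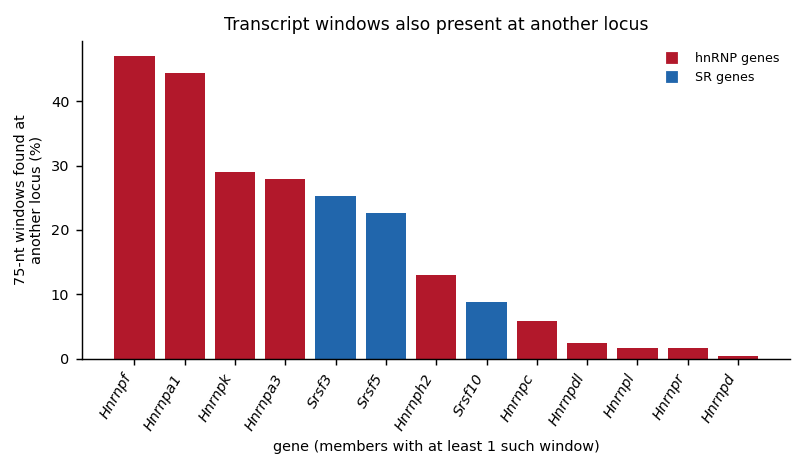
Share of 75-nt windows of the longest coding transcript (%, y axis) that occur exactly in a transcript of another locus, for the 13 members with at least 1 such window, hnRNP genes in red and SR genes in blue. Hnrnpf, at 47.0%, and Hnrnpa1, at 44.4%, stand highest, and the other 18 members are at 0.

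Most members were abundant mRNAs of the extract. Divided by the length of the longest coding transcript, the TOTAL mean was 3001 normalized reads per kb for Hnrnpk, 2948 for Hnrnpab and 2248 for Hnrnpa2b1. Among SR genes the order began with Srsf5 at 2012 and Srsf2 at 1864 per kb. When the median coding transcript is used instead, the same 3 hnRNP genes lead, with Hnrnpk at 9362 per kb. For Hnrnpk that median is 952 nt, shorter than the coding sequence of its longest transcript, 1395 nt. The value of 9362 thus rests on a divisor too short for the full mRNA. The SR order becomes Srsf1 at 2312, Srsf2 at 2195 and Srsf5 at 2106. Per kb of the longest transcript, the lowest levels were those of Hnrnpa3 at 68.4, Hnrnpa1 at 41.7 and Srsf12 at 6.10. With the median transcript, Hnrnph3 at 164 takes the place of Hnrnpa3 among these 3. Srsf12, a small SR protein gene known for a tissue-restricted pattern, was the only member with a TOTAL mean under 50, at 17.9, and Hnrnpa1 came next at 79.9. Without a spread, it cannot be said which neighbours in this order differ. In testis tissue, fewer cells of a type and less RNA per cell cannot be told apart.

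As a share of all gene reads, which needs no scaling between groups, the 31 members held 0.567% of TOTAL, 0.410% of INPUT, 0.399% of BO and 0.499% of IP. These shares carry no error. The hnRNP genes took 0.385% of TOTAL, 0.267% of INPUT and 0.366% of IP, so their share of IP was 1.37 times that of INPUT. The SR genes took 0.182% of TOTAL, 0.143% of INPUT and 0.133% of IP, 0.933 times the INPUT share. Without Hnrnpk, the hnRNP share was still 1.31 times that of INPUT, and without Hnrnpk, Hnrnpu and Hnrnpul1 it was 1.32 times.

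For the comparisons, 1 was added to each mean and genes with a mean of at least 10 over both groups were kept, which all 31 members passed. A gene was counted as higher or lower where the means differed by more than 2-fold. Compared with INPUT, 10 of the 31 members were higher in IP and 2 were lower, beside 20.5% of all 14400 genes higher and 14.6% lower. The median log2 ratio of members was 0.79, beside 0.15 over all genes, and 25 of 31 members stood above that all-gene median. Compared with BO, 14 members were higher and 3 lower, beside 43.9% of 13634 genes higher and 11.2% lower. Here the members' median was 0.88 and that of all genes 0.81, and 17 of 31 members stood above the latter. Compared with TOTAL, 4 members were higher and 2 lower, beside 20.4% of 14666 genes higher and 26.2% lower. The median of members was 0.28, that of all genes −0.028, and 22 members stood above it. Counts of higher and lower members depend on how the groups are scaled, and the all-gene median of IP vs. BO is itself 0.81 on the log2 scale. Set relative to the median gene, 4 members were higher and 5 lower than BO, beside 18.3% and 24.1% of all genes. Scaled to the summed gene means, the members' median against TOTAL turned to −0.24, and that of all genes was then −0.54. Under the deposited and 3 other scalings alike, Hnrnpc, Hnrnpl, Hnrnpab and Srsf12 were past 2-fold higher in IP than in BO, and Hnrnpd, Hnrnpa3 and Hnrnph1 past 2-fold lower. Against INPUT this held for Hnrnpm, Srsf4 and Srsf12, and in the lower direction for Hnrnpa1 and Hnrnpa3. Against TOTAL it held for Srsf12, and in the lower direction for the same 2 genes. For these and later lists under all 4 scalings, the share of all genes that met the rule was not computed. Scaled to summed gene means alone, 9.11% of all genes were higher in IP than in INPUT and 28.1% lower. The shares against TOTAL were then 9.81% and 38.0%. The lists are therefore descriptions only. All 3 comparisons share the IP libraries and are set side by side only.

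**Figure D2:**
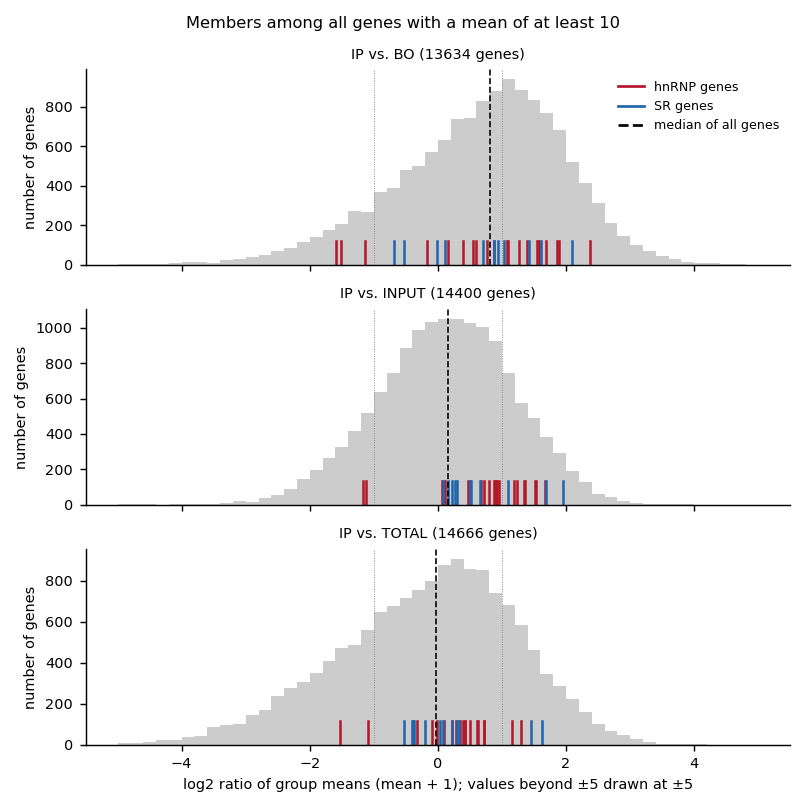
Number of genes (y axis) by log2 ratio of group means (x axis) for IP against BO, INPUT and TOTAL, with each hnRNP gene as a red and each SR gene as a blue tick, the all-gene median as a dashed line and 2-fold as dotted lines. Against INPUT, 25 of 31 members lie to the right of the dashed line, against BO 17.

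Measures of composition moved with the same groups. The 7 spermatocyte markers, including the synaptonemal complex genes Sycp1, Sycp2 and Sycp3, were all higher in IP, with median log2 ratios of 3.14 against BO, 2.48 against INPUT and 2.598 against TOTAL. Their summed mean was 27921 in TOTAL and 166437 in IP, and on the scale of the BO table it was 15342 in BO and 127651 in IP. The 5 Leydig cell markers were all lower in IP than in TOTAL, with sums of 15226 and 77573, and 5 of 6 Sertoli cell markers were lower by more than 2-fold. Against INPUT, 4 of 5 Leydig and 4 of 6 Sertoli cell markers were more than 2-fold lower. Against BO the Leydig cell markers went the other way, with all 5 means higher in IP, 2 of them by more than 2-fold, and sums of 11645 in IP and 5666 in BO. Of the Sertoli cell markers, 0 were more than 2-fold higher than in BO and 2 lower. The 6 spermatogonia markers were all lower in IP than in TOTAL, 2 of them by more than 2-fold, and 5 of 6 were lower than in INPUT. Against BO 2 of them were more than 2-fold lower, Kit at −1.78 and Zbtb16 at −1.42, and 2 higher, with sums of 2878 in IP and 5908 in BO. The 2 macrophage markers found in the tables, Cd68 and Csf1r, were lower in IP than in INPUT and TOTAL, at −1.60 and −1.19 against INPUT, and higher than in BO, at 1.32 and 1.14. The 4 peritubular and vessel cell markers were mixed against TOTAL, with Acta2 at −2.59, Cdh5 at −1.55, Myh11 at 0.21 and Pecam1 at 0.41. In IP, 2 of the 4 had a higher mean than in INPUT and all 4 a higher mean than in BO. Reads that mapped to no annotated gene feature took 22.1% of BO, 17.0% of INPUT, 14.0% of TOTAL and 10.5% of IP. The part of these differences in the members' values was not tested.

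**Figure D3:**
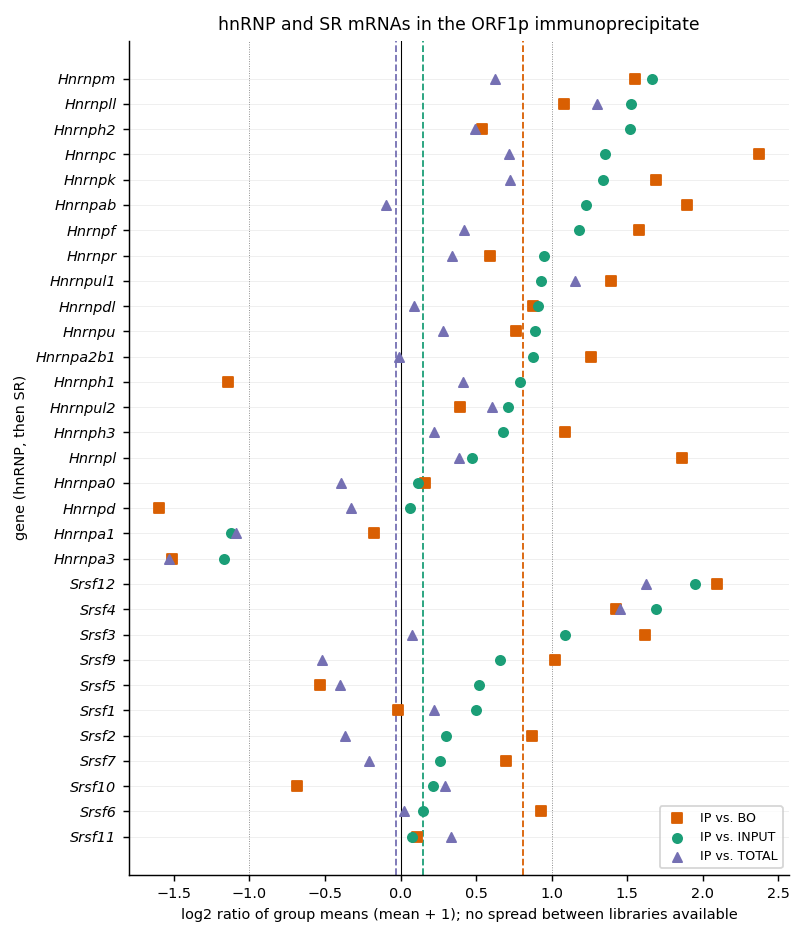
Log2 ratio of group means (x axis) of each member (y axis, hnRNP genes and then SR genes, ordered by IP vs. INPUT) for IP against BO (squares), INPUT (circles) and TOTAL (triangles). Dashed lines give the all-gene median of each comparison and dotted lines 2-fold. Hnrnpa1 and Hnrnpa3 alone lie left of 0 for INPUT, and Hnrnpd, Hnrnpa3 and Hnrnph1 lie past 2-fold to the left for BO.

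The poly-C and CA binding hnRNP genes, and hnRNP C, stood highest among the subgroups. Hnrnpk (chr13:58391142-58403343, minus strand of mm10), whose KH domains bind C-rich RNA, had a mean of 8913 in TOTAL, 5835 in INPUT and 14708 in IP, with 3484 in BO against 11266 in IP on the scale of the BO table. Its log2 ratio in IP was 1.69 against BO, 1.34 against INPUT and 0.72 against TOTAL, and its level was higher in IP than in each other group. Hnrnpc (chr14:52073377-52104028, minus strand), whose product binds uridine tracts of nascent transcripts, had a mean of 2807 in TOTAL, 1809 in INPUT and 4608 in IP, with 681 in BO against 3534 in IP on the scale of the BO table. The IP log2 ratio of Hnrnpc was 2.37 against BO, 1.36 against INPUT and 0.72 against TOTAL. The first of these was the highest of all members, and relative to the median gene it was 1.56.

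Hnrnpl and Hnrnpll encode closely related CA-repeat binding proteins that differed in these comparisons. Hnrnpll (chr17:80029487-80062334, minus strand), known from the splicing of CD45 in lymphocytes, had a mean of 1739.6 in TOTAL, 1492 in INPUT and 4292 in IP, with 1549.8 in BO against 3284 in IP on the scale of the BO table. The log2 ratios were 1.08 against BO, 1.53 against INPUT and 1.30 against TOTAL, past 2-fold in each under the deposited scaling. Scaled to summed gene means, Hnrnpll was inside 2-fold in each, at 0.79, 0.99 and 0.78. Hnrnpl had a mean of 3340.5 in TOTAL, 3155 in INPUT and 4365 in IP, with 921 in BO against 3346 in IP on the scale of the BO table. The log2 ratios of Hnrnpl were 1.86 against BO, 0.48 against INPUT and 0.39 against TOTAL. It was thus past 2-fold only against the beads, and its BO mean was lower than its INPUT mean, at a log2 ratio of −1.38 joined through IP. The ratio of Hnrnpl to Hnrnpll within a group was 1.92 in TOTAL, 2.12 in INPUT, 0.594 in BO and 1.02 in IP.

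The A/B and D type binds RNA through paired RNA recognition motifs. Hnrnpab (chr11:51600100-51606847, minus strand) had a mean of 6988 in TOTAL, 2806 in INPUT and 6538 in IP, with 1348 in BO against 5009 in IP on the scale of the BO table. The IP level of Hnrnpab was high against BO and INPUT, with log2 ratios of 1.89 and 1.23, and level with TOTAL at −0.096. Between TOTAL and the gradient pool it had the lowest value of all members, −1.32 in INPUT vs. TOTAL. Exons of Phykpl on the opposite strand cover 29.1% of its exonic bases, and Phykpl itself had a TOTAL mean of 196.

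Hnrnpa2b1, whose product takes part in splicing and mRNA transport, had a mean of 3885 in TOTAL, 2101 in INPUT and 3850.4 in IP, with 1230.2 in BO against 2949 in IP on the scale of the BO table. Its log2 ratios were 1.261 against BO, 0.88 against INPUT and −0.013 against TOTAL. For Hnrnpdl, a D-like gene, the mean was 2151 in TOTAL, 1222 in INPUT and 2290.4 in IP, with 955 in BO against 1755 in IP on the scale of the BO table. The ratios of Hnrnpdl were 0.88 against BO, 0.91 against INPUT and 0.091 against TOTAL. Hnrnpa0, an A/B gene whose product binds AU-rich elements, stayed within 2-fold throughout, with means of 2583 in TOTAL, 1824 in INPUT and 1966 in IP, and 1344 in BO against 1504 in IP of that table.

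Hnrnpa1 and Hnrnpa3, the classical repressors of splice site use whose shared stretches are printed above, were the only members with lower means in IP than in INPUT under the deposited scaling, and 12 members had one when both groups were scaled to their summed gene means. Hnrnpa1 (chr15:103240432-103246692, plus strand) had a mean of 79.9 in TOTAL, 81.9 in INPUT and 37.0 in IP, with 32.2 in BO against 28.3 in IP on the scale of the BO table. The log2 ratios were −0.18 against BO, −1.12 against INPUT and −1.09 against TOTAL. With 10 added in place of 1, Hnrnpa1 fell inside 2-fold, at −0.96 against INPUT and −0.94 against TOTAL. It did not pass a filter of a mean of at least 100. Hnrnpa3 (chr2:75659261-75669407, plus strand) had a mean of 352 in TOTAL, 274 in INPUT and 121 in IP, with 266 in BO against 92.5 in IP on the scale of the BO table. Its log2 ratios were −1.51 against BO, −1.17 against INPUT and −1.54 against TOTAL. These 2 genes are the only members past 2-fold in the lower direction against INPUT and against TOTAL, so without them both counts are 0. Of the copies that share windows with them, only Gm5643 is listed in the tables, at a mean of 0.478 in BO and 0 in INPUT and TOTAL. The share of reads lost to multimapping at each gene is not given, while over all reads it was 18.2% of TOTAL, 7.35% of INPUT, 5.62% of BO and 5.30% of IP.

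Hnrnpd (chr5:99955935-99978938, minus strand), whose product AUF1 binds AU-rich elements and is known for mRNA decay, had the highest BO mean relative to INPUT of its type. Its mean was 859 in TOTAL, 656 in INPUT and 683 in IP, with 1585 in BO against 523 in IP on the scale of the BO table. In IP it was close to INPUT, at a log2 ratio of 0.064, and it was lower than in BO, at −1.60, the lowest such ratio of any member. Joined through IP, BO exceeded INPUT by 1.66. Within TOTAL there were 8.14 Hnrnpab reads for each Hnrnpd read, not corrected for length, within INPUT 4.28, within IP 9.58 and within BO 0.850. Such ratios within a group do not depend on the scaling between groups. The pairs were chosen after the values were seen.

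The F and H genes, whose proteins bind runs of G, also divided in BO. Hnrnph1 (chr11:50376990-50386528, plus strand) had a mean of 4454 in TOTAL, 3441 in INPUT and 5941 in IP, with 10067 in BO against 4551 in IP on the scale of the BO table. Per kb of its longest coding transcript it was the highest member of BO, at 4148, and its log2 ratios in IP were −1.15 against BO, 0.79 against INPUT and 0.42 against TOTAL. Its relatives differed in that group. Hnrnpf (chr6:117900324-117925622, plus strand) had a mean of 988 in TOTAL, 585 in INPUT and 1319.5 in IP, with 338 in BO against 1011 in IP on the scale of the BO table. In IP its log2 ratios were 1.58 against BO, 1.18 against INPUT and 0.42 against TOTAL. Within a group, there were 4.51 Hnrnph1 reads for each Hnrnpf read in TOTAL, 5.89 in INPUT, 4.50 in IP and 29.7 in BO. Hnrnpf shares 47.0% of its windows with transcripts of other loci and none was found for Hnrnph1, which can affect the size of this ratio. Whether it did so to the same extent in each group was not tested.

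Hnrnph2 (chrX:134601179-134607060, plus strand), an X-linked copy of Hnrnph1, had a mean of 551 in TOTAL, 270.3 in INPUT and 775 in IP, with 407 in BO against 593 in IP on the scale of the BO table. Its log2 ratio was 1.52 against INPUT and 0.49 against TOTAL, and its INPUT mean was lower than its TOTAL mean, at −1.03. Against BO, Hnrnph2 stood at 0.54. Hnrnph3 had a mean of 356 in TOTAL, 259.8 in INPUT and 416 in IP, with 149 in BO against 318 in IP on the scale of the BO table. It stood past 2-fold only against BO, at 1.09 under the deposited scaling, and was at 0.28 there when centred on the median gene.

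**Figure D4:**
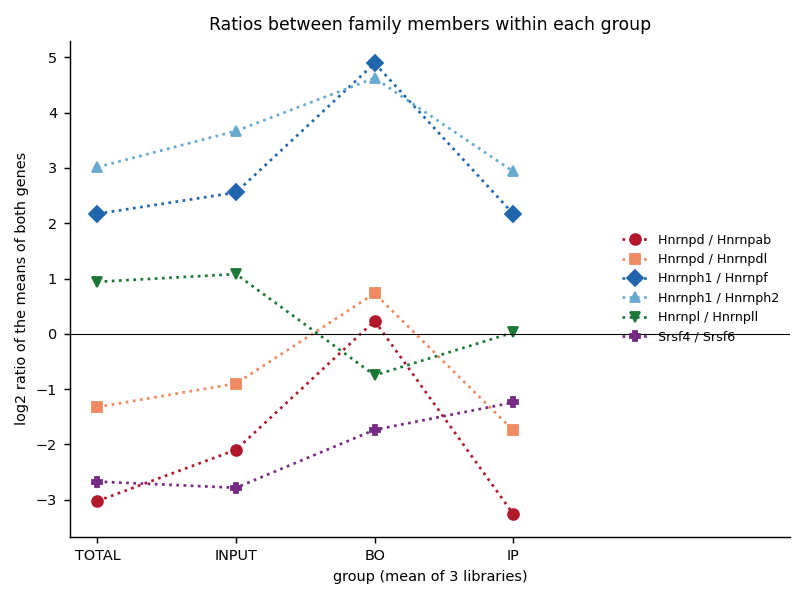
Log2 ratio between the means of 2 related genes (y axis) within each group (x axis; dotted lines only join points of a pair and imply no order). Hnrnpd against Hnrnpab and Hnrnpdl, and Hnrnph1 against Hnrnpf and Hnrnph2, all peak in BO, whereas Hnrnpl against Hnrnpll is lowest there.

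Among the hnRNP M, R and U genes, Hnrnpm (chr17:33646233-33686860, minus strand), whose product binds GU-rich RNA, had the highest IP vs. INPUT ratio of any hnRNP gene. The mean of Hnrnpm was 2444 in TOTAL, 1192 in INPUT and 3767 in IP, with 984 in BO against 2886 in IP on the scale of the BO table. Its log2 ratios were 1.55 against BO, 1.67 against INPUT and 0.62 against TOTAL, and its INPUT mean was below TOTAL, at −1.04. Exons of March2 on the same strand cover 14.7% of its exonic bases, where reads cannot be assigned to either gene. Hnrnpr, a relative of Syncrip, had a mean of 2109 in TOTAL, 1389 in INPUT and 2667 in IP, with 1355 in BO against 2043 in IP on the scale of the BO table. It stayed within 2-fold, with its highest log2 ratio, 0.95, against INPUT.

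Hnrnpu encodes SAF-A, which attaches RNA to the nuclear scaffold. Its mean was 11492 in TOTAL, 7561 in INPUT and 13961 in IP, with 6311 in BO against 10698 in IP on the scale of the BO table. The log2 ratios were 0.76 against BO, 0.89 against INPUT and 0.28 against TOTAL, all within 2-fold. Hnrnpul1 (chr7:25721165-25754757, minus strand), a U-like gene with a role in the DNA damage response, had a mean of 4262 in TOTAL, 5004 in INPUT and 9493 in IP, with 2770.4 in BO against 7264 in IP on the scale of the BO table. On the log2 scale it stood above TOTAL by 1.16 and above BO by 1.39, and just inside 2-fold against INPUT at 0.93. Scaled to summed gene means, Hnrnpul1 was at 0.64 against TOTAL. Centred on the median gene, it was at 0.58 against BO, so both calls depend on the scaling. Hnrnpul2, of the same type, had a mean of 2657 in TOTAL, 2478 in INPUT and 4046 in IP, with 2359 in BO against 3100.0 in IP on the scale of the BO table. Its log2 ratios lay between 0.39 and 0.71.

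Among the SR genes, against INPUT all 11 had a higher mean in IP, at log2 ratios from 0.075 to 1.95 with a median of 0.50, and 3 were past 2-fold, beside 20.5% of all genes. When both groups were scaled to their summed gene means, the IP mean was the higher in 4 of the 11, and the all-gene median was −0.38. Against TOTAL their median was 0.077, with log2 ratios from −0.52 to 1.62 and 2 higher by more than 2-fold, beside 20.4% of all genes. Both shares of higher genes are near those of all genes. In the lower direction 0 of the 11 were past 2-fold against INPUT or TOTAL, beside 14.6% and 26.2% of all genes. For IP vs. BO as deposited, 4 SR genes were higher and 0 lower, beside 43.9% and 11.2%, with a median of 0.87 beside 0.81. Centred on the median gene, only Srsf12 was past 2-fold higher than BO, at 1.28. Srsf10 at −1.50 and Srsf5 at −1.35 were then past 2-fold lower, beside 18.3% of all genes higher and 24.1% lower. Under upper quartile scaling the same genes passed, at 1.46, −1.36 and −1.21, so the calls against BO depend on the scaling. The IP mean was above TOTAL in 7 of the 11 as deposited, in 5 under upper quartile scaling and in 2 when scaled to summed gene means, so the direction against TOTAL depends on the scaling.

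The 2 SR genes past 2-fold in each comparison under the deposited scaling were Srsf12 and Srsf4. Srsf12 (chr4:33208991-33233340, plus strand) had a mean of 17.9 in TOTAL, 14.2 in INPUT and 57.3 in IP, with 9.54 in BO against 43.9 in IP on the scale of the BO table. Its log2 ratios, with 1 added to each mean, were 2.09 against BO, 1.95 against INPUT and 1.62 against TOTAL. The last 2 were the highest of all members, at the lowest level, and this rank depends on the pseudocount. With 10 added, Srsf12 was at 1.46 against BO, 1.48 against INPUT and 1.27 against TOTAL. Srsf4 was then above it, at 1.68 against INPUT and 1.44 against TOTAL. Srsf12 did not pass a filter of a mean of at least 100. Srsf4 (chr4:131873617-131901706, plus strand), which encodes the largest classical SR protein, had a mean of 657 in TOTAL, 560.1 in INPUT and 1803 in IP, with 514 in BO against 1382 in IP on the scale of the BO table. The log2 ratios of Srsf4 were 1.42 against BO, 1.69 against INPUT and 1.46 against TOTAL. Against BO, Srsf4 was at 0.61 when centred on the median gene and at 0.75 under upper quartile scaling. Scaled to summed gene means, it was at 0.94 against TOTAL, so both calls depend on the scaling. Gm12992 lies opposite 43.0% of the exonic bases of Srsf4 and had means of 85.0 in TOTAL and 125 in IP. The libraries mark strand, but the strand setting of the counting is not given in the sources used here. Within a group, Srsf4 stood to Srsf6, its closest relative here, at 0.157 in TOTAL, 0.145 in INPUT, 0.300 in BO and 0.423 in IP.

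Srsf3 and Srsf7 encode short SR proteins that also serve as adaptors of mRNA export. Srsf3 (chr17:29032628-29043373, plus strand) had a mean of 2554 in TOTAL, 1274 in INPUT and 2694 in IP, with 673 in BO against 2065 in IP on the scale of the BO table. The log2 ratios of Srsf3 were 1.62 against BO, 1.09 against INPUT and 0.077 against TOTAL, and its INPUT mean was below TOTAL, at −1.01. Srsf7 had a mean of 2209 in TOTAL, 1603 in INPUT and 1911 in IP, with 904 in BO against 1466 in IP on the scale of the BO table. Srsf7 was within 2-fold in each comparison.

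Srsf5, Srsf10 and Srsf1 had BO means at or above their IP means. Srsf5 had a mean of 3155 in TOTAL, 1678 in INPUT and 2389 in IP, with 2654 in BO against 1832 in IP on the scale of the BO table. Joined through IP, its BO mean exceeded INPUT by a log2 ratio of 1.05. Srsf10, which encodes a splicing repressor active when dephosphorylated, had a mean of 2819 in TOTAL, 2989.7 in INPUT and 3453 in IP, with 4258 in BO against 2648 in IP on the scale of the BO table. Its log2 ratio was −0.69 against BO. Srsf1, the founding member of the family, had a mean of 6815 in TOTAL, 5650.0 in INPUT and 7952 in IP, with 6185 in BO against 6101 in IP on the scale of the BO table. Its log2 ratio against BO was −0.020. The rest of the SR genes stayed within 2-fold, apart from Srsf9. That gene (chr5:115327177-115333080, plus strand), a short relative of Srsf1, had a mean of 1728 in TOTAL, 764 in INPUT and 1203 in IP, with 452 in BO against 920.4 in IP on the scale of the BO table. Its log2 ratios were 1.02 against BO, 0.66 against INPUT and −0.52 against TOTAL, and INPUT vs. TOTAL it was −1.18. Centred on the median gene, Srsf9 was at 0.21 against BO.

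Srsf2, which encodes SC35, a protein used to mark nuclear speckles, had a mean of 3539.9 in TOTAL, 2228 in INPUT and 2739 in IP, with 1148 in BO against 2097 in IP on the scale of the BO table. Exons of Mettl23 and Mfsd11 on the opposite strand cover 25.3% of Srsf2. Srsf6 had a mean of 4192 in TOTAL, 3861 in INPUT and 4264 in IP, with 1714 in BO against 3267 in IP on the scale of the BO table. Srsf11, whose product interacts with U2AF, had a mean of 2192 in TOTAL, 2633 in INPUT and 2762 in IP, with 1965 in BO against 2116 in IP on the scale of the BO table. Its IP vs. INPUT log2 ratio, 0.075, was the smallest of the SR genes.

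**Figure D5:**
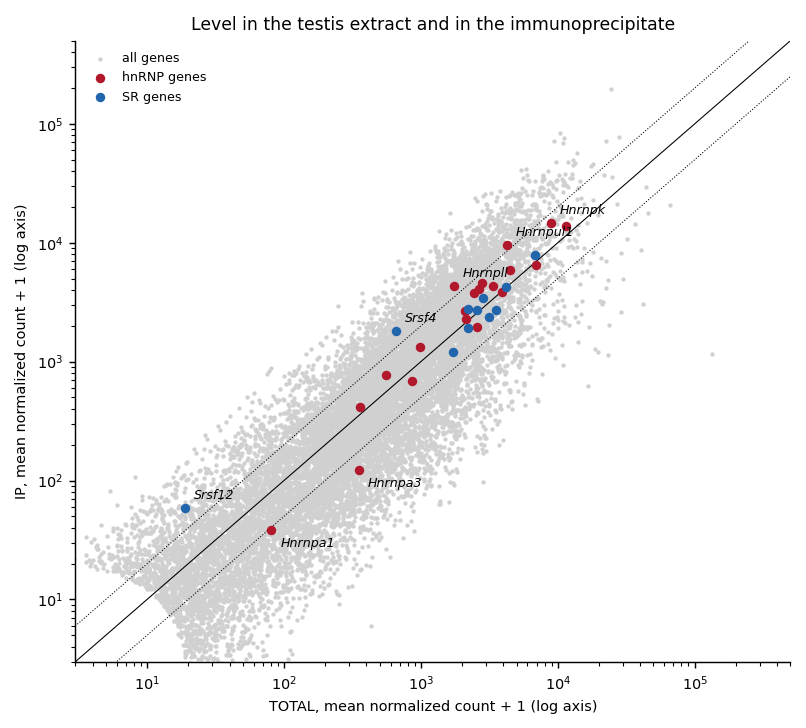
Mean normalized count + 1 in TOTAL (x axis, log scale) and IP (y axis, log scale) for all genes with a mean of at least 10 (grey), hnRNP genes (red) and SR genes (blue); the solid line is equality and the dotted lines 2-fold. Srsf12, Srsf4, Hnrnpll and Hnrnpul1 lie above the upper dotted line and Hnrnpa1 and Hnrnpa3 below the lower one.

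Between the whole extract and the gradient pool, joined through IP, no member was more than 2-fold higher in INPUT and 5 were lower, beside 2.3% of 14280 genes higher and 17% lower. These 5 were Hnrnpab, Srsf9, Hnrnpm, Hnrnph2 and Srsf3, and only Hnrnpab stayed past 2-fold under all 4 scalings. The median log2 ratio of members was −0.47, beside −0.14 over all genes. In 27 of 31 members INPUT was the lower mean, the exceptions being Srsf11 at 0.26, Hnrnpul1 at 0.23, Srsf10 at 0.077 and Hnrnpa1 at 0.030. Across all 13196 coding genes compared, this ratio followed the length of the longest transcript with a Pearson r of 0.69, and across the 31 members r was 0.21. Over the 19 members with under 1% shared windows r was 0.40. Genes are not independent replicates, and all points come from the same libraries.

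The beads alone were compared with INPUT in the same way, a comparison added after the files were seen. Here 3 members were higher in BO and 2 lower, beside 9.32% of 13578 genes higher and 33.3% lower. Higher were Hnrnph1 at 1.94, Hnrnpd at 1.66 and Srsf5 at 1.05. Hnrnpl at −1.38 and Hnrnpc at −1.02 were lower. The median was −0.050 for members and −0.55 for all genes, and 25 of 31 members stood above the all-gene median. The members' median turned to 0.61 when centred on the median gene and to 0.21 under upper quartile scaling, where that of all genes was 0.11 and −0.29, and Hnrnph1 and Hnrnpd stayed past 2-fold higher under all 4 scalings.

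Related gene lists were counted in the same tables. Of the 19 genes of hnRNP-like proteins under other names, 6 were higher in IP than in INPUT and 0 lower, beside 20.5% and 14.6% of all genes, with a median log2 ratio of 0.63 beside 0.15. Ptbp2, the neuronal and germline polypyrimidine tract binding protein, was highest at 2.00, and Rbm3, a cold-inducible protein gene, was lowest at −0.76. Against BO, 12 of these genes were higher and 3 lower, beside 43.9% and 11.2% of all genes, from Syncrip at −1.95 to Pcbp3 at 3.05. Syncrip and Hnrnpr are paralogues, and Hnrnpr stood at 0.59 in that comparison.

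Of the genes of SR-related proteins, SR protein kinases and SR import receptors, 23 could be compared. Higher in IP than in INPUT were 9, with 0 lower and a median of 0.92, beside 20.5% of all genes higher, 14.6% lower and a median of 0.15. Srpk1, a kinase of SR proteins, was highest at 1.47 and Clk1, a nuclear kinase of the same substrates, lowest at −0.59. Against TOTAL, 9 were higher and 0 lower, beside 20.4% and 26.2% of all genes. The median was 0.72, beside −0.028, and the highest ratios were those of Srrm2, a scaffold gene of nuclear speckles, at 1.89, and Acin1 at 1.81. Against BO, 8 were higher and 3 lower, beside 43.9% and 11.2% of all genes, with a median of 0.61 beside 0.81. The 3 lower genes were Tnpo1 at −1.82, Srek1 at −1.33 and Clk1 at −1.19.

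The 24 genes of snRNP proteins and U2 factors, the constitutive spliceosome parts, had mostly lower means in INPUT than in TOTAL. In INPUT 15 of the 24 were more than 2-fold lower and 0 higher, with a median of −1.34, beside 2.3% of all genes higher, 17% lower and a median of −0.14. The lowest were Snrpf at −2.51 and Snrpg at −2.29, which encode small Sm ring proteins, and the highest were Sf3b3 at 0.64 and Sf3b1 at 0.60. In IP, 2 were higher than in TOTAL and 10 lower, beside 20.4% and 26.2% of all genes. Their median was −0.79, beside −0.028 for all genes and 0.28 for the SR and hnRNP genes. Compared with INPUT, 2 were higher in IP and 1 lower, beside 20.5% and 14.6% of all genes, with a median of 0.54 beside 0.15. Against BO, 21 were higher and 0 lower, beside 43.9% and 11.2% of all genes, with a median of 1.53 beside 0.81. The 10 genes of nonsense-mediated decay had 7 higher and 0 lower in IP than in TOTAL, beside the same 20.4% and 26.2%, with a median of 1.19 beside −0.028. Among these, Upf1, the central helicase of the pathway, was highest at 2.29. The count was 4 higher and 0 lower against INPUT, beside 20.5% and 14.6% of all genes, with a median of 0.77 beside 0.15. It was 5 higher and 0 lower against BO, beside 43.9% and 11.2%, with a median of 1.09 beside 0.81. These lists were chosen with earlier results known, and their counts are descriptions.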

How the data were processed

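Deposited tables of 12 RNA-seq libraries were analysed, with 3 libraries in each of the groups TOTAL, INPUT, BO and IP, assigned by the sample labels. The libraries were prepared with a stranded total RNA kit after rRNA depletion and sequenced as 75-nt single-end reads. Mapping by the authors used STAR v2.6.0c and the mm10 genome, and DESeq2 v1.24.0 normalized the counts separately for IP and each other group. The gene annotation and strand setting of the counting are not given in the sources used here. The deposited signal used here is the authors' mean normalized count per gene and group, with no value per library. The tables also hold the authors' own fold changes, standard errors and p-values, which were not used. Rows for unmapped, multimapping, ambiguous and no-feature reads, 4 in number, name no gene and were left out. They held 37.9% of BO, 30.5% of INPUT, 38.6% of TOTAL and 22.1% of IP. A second deposited signal, normalized counts per repeat subfamily and library, served only for the rRNA share.

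Log2 ratios of the authors' means were computed after adding a pseudocount of 1, for genes with a mean of at least 10 over both groups. INPUT vs. TOTAL and BO vs. INPUT are differences of 2 such ratios to IP. Gene models, lengths and 75-nt windows, compared on both strands, come from GENCODE M21, to which 31 of 31 members matched by symbol. Calculations used Python 3.11.15 with numpy 2.4.6 and pandas 2.3.3, and the window search and counts were tested on simulated data. No precision is attached to the ratios, because the authors' standard errors were set aside with their comparisons and no gene value or depth per library is given. Every member is named with its value in every group; members past 2-fold against both BO and INPUT or in a comparison with TOTAL are described in full, and other genes only as the extremes of a list, markers, overlapping genes or copies. The members and lists were chosen with earlier results of these data known. Alternatives were other pseudocounts, filters, scalings and thresholds.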

Additional observations from a re-analysis of the deposited data

How the results depend on the processing

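No paired analysis was possible because genes have only a mean per group. For the same reason no library could be left out, and repeat loci inside member genes could not be summed because the tables give no coordinates. Adding 0.1 in place of 1, or no filter on the mean, kept every member count within 1.5 times and every median of members within 0.1. All 31 members pass the filter, so removing it could move only the values of all genes. Without it the all-gene median was 0.54 for IP vs. BO, 0.029 for IP vs. INPUT and −0.43 for BO vs. INPUT. Adding 10, or a mean of at least 100, left 1 member lower for IP vs. INPUT, beside 11.8% and 11.0% of all genes, and 1 for IP vs. TOTAL, beside 23.7% and 22.2%. In each case this was Hnrnpa3. At a mean of at least 100, which 29 members passed, the all-gene median was 0.30 for IP vs. INPUT and 0.12 for IP vs. TOTAL. The members' medians stayed at 0.79 and 0.28, so they lay closer to those of all genes. Centred on the median gene, IP vs. BO had 4 members higher and 5 lower, beside 18.3% and 24.1% of all genes, with a median log2 ratio of 0.067, and the median was 0.64 for IP vs. INPUT. For INPUT vs. TOTAL 2 members were then lower, beside 12.98%, with a median of −0.29 beside 0.037. For BO vs. INPUT 9 were higher and 0 lower, beside 22.5% and 15.2%, with a median that turned to 0.61 beside 0.11. Scaled to summed gene means, the median was 0.59 for IP vs. BO, beside 0.53 for all genes. Under that scaling 3 members were higher in IP than in INPUT, beside 9.11% of all genes, with a median of 0.26 beside −0.38. In IP, 1 was higher than in TOTAL, beside 9.81%, where the median turned to −0.24 beside −0.54. For BO vs. INPUT it gave 4 members lower, beside 42.1%, and a median of −0.29 beside −0.79. Scaled to the upper quartile, IP vs. BO had 5 members higher and 5 lower, beside 22.6% and 21.3% of all genes, with a median of 0.21 beside 0.15. Against INPUT 5 were then higher, beside 11.2%, with a median of 0.38 beside −0.25, and against TOTAL the median was 0.068 beside −0.24. This scaling left 1 member lower in INPUT than in TOTAL, beside 12.7%, with a median of −0.27 beside 0.051. For BO vs. INPUT it gave 5 higher and 1 lower, beside 13.3% and 25.5%, and a median that turned to 0.21 beside −0.29. At a threshold of 1.5-fold, 19 members were higher in IP than in INPUT, 8 higher in IP than in TOTAL and 14 lower in INPUT than in TOTAL, beside 34.3%, 31.7% and 30.2% of all genes, and BO vs. INPUT had 5 higher and 5 lower, beside 16.6% and 48.5%. Without Hnrnpa1 and Hnrnpa3, an alternative chosen after seeing the data, 0 members were lower for IP vs. INPUT and 0 for IP vs. TOTAL. Over the 19 members with under 1% shared windows, also chosen then, each median moved by less than 0.1. The moves between scalings come from the factor applied to all genes alike, and no depth per library is given to set it.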
